A study of Mus musculus with 16 samples.

Results

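The respiratory chain genes of the nucleus were followed in the hippocampus of mice tested for learned helplessness. They were taken by name, as every protein coding gene whose symbol starts with Nduf, Sdh, Uqcr, Atp5, Cox4, Cox5, Cox6, Cox7 or Cox8, and 90 of the 14785 protein coding genes in the data met this rule. Of the 90 genes, 78 encode subunits, with 36 in complex I, 4 in complex II, 8 in complex III, 15 in complex IV and 15 in complex V. The other 12 carry such names but are known as assembly factors or associated proteins. By name alone, 7 of them are placed with complex I, 3 with complex II and 2 with complex V. Their counts are kept apart where they matter. Cox4i1, Cox7b, Cox8c, Ndufa1 and Ndufb11, as well as the subunits encoded by mitochondrial DNA, were not analysed here.

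Male wild type C57BL/6 mice of 3 months gave 16 libraries, each from the 2 hippocampi of 1 mouse, with 4 mice in each of 4 groups. Mice of the homecage group (HC) stayed in their cages, without handling, shocks or trials. Those of the control group (Ctrl) were handled, spent day 1 in the shuttle box with 0 inescapable shocks and then had 30 escape trials at 0.4 mA. The remaining mice had 180 inescapable shocks at 0.4 mA ahead of the same 30 trials, and escape behavior then sorted them into a learned helpless group (LH) and a group that was not helpless (NLH). Hippocampi were collected 3 h after that test. LH and NLH mice had the same inescapable shocks, but a shock of the escape test ended when the mouse escaped, so mice that failed more often had more shock in that test. NLH vs. Ctrl and LH vs. Ctrl share the same 4 Ctrl mice.

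The respiratory chain sits in the inner mitochondrial membrane. Complexes I and II feed electrons from NADH and succinate to ubiquinone, complex III passes them to cytochrome c and complex IV to oxygen, and the proton gradient built by complexes I, III and IV drives complex V, the ATP synthase. Most of the subunits are made in the cytosol from nuclear genes and imported, a few hydrophobic ones come from mitochondrial DNA, and complex II is nuclear throughout. Neurons depend on this pathway for the ATP spent on ion pumping and synaptic transmission. The question put to the data was whether this set of housekeeping genes differs between undisturbed mice, mice with handling, the shuttle box and escape trials, and mice with inescapable shocks that did or did not become helpless.

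Levels are in FPKM, that is, sequenced fragments scaled to transcript length and library size, summed over the protein coding rows of a gene, so that levels can be set side by side between genes. Group values are mean ± SD over 4 mice. The estimated depth was 20200000 to 38020000 fragments per mouse, with LH replicate 4 the shallowest. LH replicates 3 and 4 stood apart from the other mice: 10846 and 15504 of the 80137 transcripts were listed at 0 in them, against 4872 to 7352 in the other 14 mice. The main counts and medians of the set, and some single genes, are therefore given with and without these 2 mice. Counts by complex, for transcripts, for other gene lists and for markers are given only with them. Markers of hippocampal principal cells were listed in every group with a summed FPKM of 59.5 to 111, and markers of the striatum with 7.53 to 18.3. In these bulk samples, fewer cells of a type and less RNA per cell cannot be told apart.

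Promoters of the genes were looked at first, because transcription of this set is known to be tied to the factors NRF-1, GABP (an ETS factor, NRF-2) and YY1. RefSeq promoter windows of GRCm38.p6, from 250 bases before to 50 bases after the start, were matched to 76 of the 90 genes. The NRF-1 motif, written as GCGCA and GCGC with 1 base of any kind between them, and all other motifs were read on both strands. The NRF-1 motif was present in 21 of the 76 windows (27.6%), against 7.17% of the 17492 protein coding genes with a window. The ETS motif CCGGAAG was present in 19 (25% against 12.9%) and the YY1 motif AAGATGG in 12 (15.8% against 7.18%). At least 1 of these 3 motifs was found in 45 of the 76 genes (59.2%), against 24.1% of the 17492 genes. The TATA motif TATAAA was found in 8 (10.5% against 14.8%). The 17492 genes were not chosen by expression in the hippocampus, so these shares are not compared at equal abundance. With assembly factors placed by their names, NRF-1 motifs were found in 9 of 37 complex I genes, 4 of 6 complex II genes and 1 of 5 complex III genes. They were found in 1 of 12 complex IV genes and 6 of 16 complex V genes. These matches describe letters in a window and not binding in these mice.

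Promoter windows of 4 genes whose levels are described in detail are shown 5′ to 3′ with the NRF-1, ETS and YY1 motifs in capitals. They are Ndufb3, chr1:58586147-58586446 (plus strand), with none of the 3 motifs, Ndufs5, chr4:123718137-123718436 (minus strand), with an NRF-1 motif whose first base lies at -98 (the start being 0), Cox6b1, chr7:30626065-30626364 (minus strand), with an ETS motif at -28, and Atp5j2, chr5:145191492-145191791 (minus strand), with a YY1 motif at 23.
Ndufb3: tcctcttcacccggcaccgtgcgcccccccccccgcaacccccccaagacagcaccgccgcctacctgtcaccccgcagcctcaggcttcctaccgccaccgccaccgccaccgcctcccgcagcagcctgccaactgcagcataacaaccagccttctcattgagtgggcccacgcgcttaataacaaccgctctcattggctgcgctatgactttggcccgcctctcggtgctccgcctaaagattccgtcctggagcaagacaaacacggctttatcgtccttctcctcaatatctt
Ndufs5: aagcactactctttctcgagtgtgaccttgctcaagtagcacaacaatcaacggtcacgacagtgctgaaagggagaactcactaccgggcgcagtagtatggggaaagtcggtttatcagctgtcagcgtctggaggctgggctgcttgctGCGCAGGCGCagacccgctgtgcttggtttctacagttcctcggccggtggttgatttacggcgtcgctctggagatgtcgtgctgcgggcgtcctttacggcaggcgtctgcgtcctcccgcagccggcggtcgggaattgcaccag
Cox6b1: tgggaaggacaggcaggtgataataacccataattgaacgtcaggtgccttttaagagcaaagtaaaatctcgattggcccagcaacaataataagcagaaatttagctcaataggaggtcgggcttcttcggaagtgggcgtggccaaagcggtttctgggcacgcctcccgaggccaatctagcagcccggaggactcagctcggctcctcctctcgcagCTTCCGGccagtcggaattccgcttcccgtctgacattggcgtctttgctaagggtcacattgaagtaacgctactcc
Atp5j2: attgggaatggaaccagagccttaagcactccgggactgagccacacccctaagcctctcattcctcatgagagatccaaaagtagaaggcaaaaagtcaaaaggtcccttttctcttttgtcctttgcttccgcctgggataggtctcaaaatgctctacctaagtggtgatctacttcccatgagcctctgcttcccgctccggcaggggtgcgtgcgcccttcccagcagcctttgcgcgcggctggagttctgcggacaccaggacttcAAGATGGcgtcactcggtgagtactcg
Of the 11 genes with an unadjusted limma p under 0.05 that were higher in NLH than in Ctrl mice, 10 had a window, and 6 of these held at least 1 of the 3 motifs, beside 59.2% of all 76 genes.

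The genes were among the more abundant of the tissue. The median of their mean FPKM was 15.1, against 2.61 for all genes, and the median gene of the set ranked at percentile 90 of all genes. A mean FPKM of at least 1 was reached by 85 of the 90, and 84 were above 0 in all 16 mice. Atp5b, the catalytic beta subunit of ATP synthase, had the highest level of all 90 genes when all its transcripts were summed, with 227 ± 9.62 FPKM in HC mice, 233 ± 20.3 in Ctrl, 249 ± 19.5 in NLH and 232 ± 52.7 in LH mice. Next came Cox6c (mean 192 over 16 mice), Cox8a (159) and Cox7c (116), small membrane subunits of complex IV, and Atp5a1 (103), the alpha subunit that alternates with beta in the ATP synthase head. Only 54.6% of the FPKM of Atp5b came from transcripts of coding class. By these alone Cox6c (190) and Cox8a (159) lay above Atp5b (128). Alpha and beta stand in equal number in the enzyme, and Atp5b exceeded Atp5a1 in each of the 16 mice, both by all transcripts and by those of coding class (128 against 102).

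**Figure D1:**
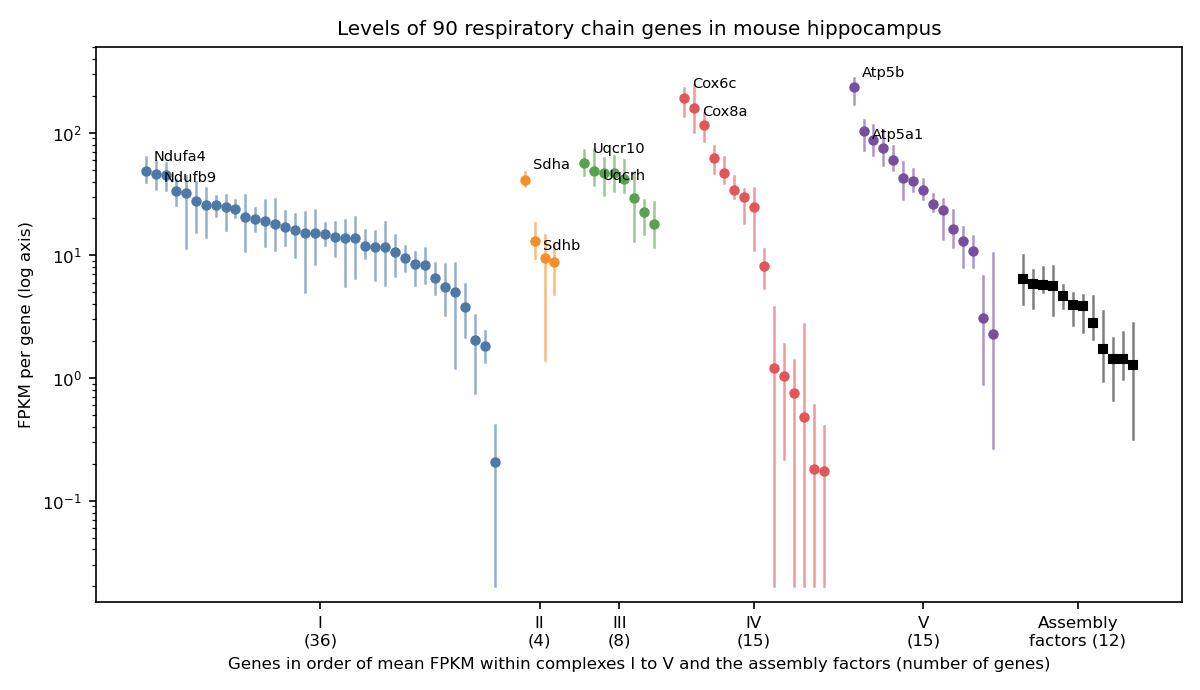
FPKM (log axis) of the 90 genes in order of their mean within complexes I to V and the assembly factors. Points are means over 16 mice and lines run from the lowest to the highest mouse, with 0 drawn at the lower end of the line (0.02). Complex III genes lie close together, between 17.9 and 56.4, while complex IV genes run from 0.175 (Cox4i2) to 192 (Cox6c).

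By complex, the median level was 14.9 FPKM for complex I, 11.2 for complex II, 44.1 for complex III, 24.6 for complex IV, 33.8 for complex V and 3.92 for the 12 assembly factors. Complex III was the most even, with its highest gene, Uqcr10, at 1.28 times the median, whereas the highest genes of complexes IV and V lay at 7.82 and 6.97 times theirs. In complex I, Ndufa4 (mean 48.5 FPKM), first assigned to complex I and now known as a complex IV protein, and Ndufb9 (46.2) were the highest. Of the core subunits that carry electrons from NADH, Ndufv2 came next with 45.4, while the mean was 19.9 for Ndufv1, which binds NADH and the flavin, and 24 for Ndufs1, the largest iron-sulfur subunit. In complex II, the flavoprotein Sdha (41.4 FPKM) lay above its iron-sulfur partner Sdhb (13) and the membrane anchors Sdhc (8.86) and Sdhd (9.52). In complex III, Uqcrc1 had 46.6 FPKM, Uqcrh 48.3 and the Rieske protein Uqcrfs1 22.7. These levels count rows that carry the gene's name: at Sdhb an unnamed assembled transcript held 63.9% of the FPKM of the locus, and at Atp5j, Ndufs8, Sdhd and Ndufs3 unnamed transcripts held 63.9%, 47.4%, 39.1% and 31.0%. The medians by complex leave unnamed transcripts out, which had 22.9 FPKM at Sdhb and 6.12 at Sdhd. The low median of complex II therefore depends on which rows are counted.

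For Cox6a, Cox6b, Cox7a, Cox8 and Ndufa4, subunits with tissue isoforms, the ubiquitous form was the higher one in each of the 16 mice. Cox6a2, Cox7a1 and Cox8b, known as the heart and muscle forms, made up a median of 3.96%, 2.18% and 0.196% of the sum with Cox6a1, Cox7a2 and Cox8a, respectively. Cox6b2, a testis form, made up 1.38% of the sum with Cox6b1, and Ndufa4l2, a form induced by low oxygen, 0.458% of the sum with Ndufa4. Cox4i2, the lung form, was listed at a mean of 0.175 FPKM, and Cox7b2 at 0.181, and their ubiquitous forms Cox4i1 and Cox7b were not analysed here. Shares of the minor forms ranged widely between mice, from 0.939% to 13.6% for Cox6a2, which was above 0 in all 16 mice, and from 0% to 7.75% for Cox7a1. The c subunit of ATP synthase is made from 3 genes that encode the same mature protein: Atp5g3 gave a median of 53.4% of their summed FPKM, Atp5g1 32.8% and Atp5g2 14.2%. This order, Atp5g3 over Atp5g1 over Atp5g2, held for the medians, and the ranges over mice (47.7% to 61.7%, 23.2% to 35.5% and 11.8% to 19.3%) did not overlap.

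No gene of the set passed an adjusted p of 0.05 in any of the 4 comparisons (limma on log2 of FPKM + 0.1, Benjamini-Hochberg over all 14785 genes), where 0, 0, 8 and 1 of all genes passed in Ctrl vs. HC, NLH vs. Ctrl, LH vs. Ctrl and LH vs. NLH (0%, 0%, 0.0541% and 0.00676%). At an unadjusted limma p under 0.05, the set held 2 genes in Ctrl vs. HC (2.64% of all genes), 11 in NLH vs. Ctrl (5.96%), 12 for LH against Ctrl (11.8%) and 4 for LH against NLH (7.03%). Groups without overlap were found for 4 genes higher and 2 lower in Ctrl vs. HC (3.87% and 1.97% of all genes), 10 and 0 in NLH vs. Ctrl (5.48% and 1.25%), 5 and 1 for LH against Ctrl (4.84% and 1.14%) and 0 and 2 for LH against NLH (0.92% and 1.06%). What follows describes these genes against the share of all genes at the same threshold, and none of them is a call after adjustment. The fit pooled the spread of all 4 groups, so a limma p does not rest on the mice compared alone.

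Ctrl vs. HC asked about handling, the shuttle box and the escape trials, which Ctrl mice had and HC mice did not. In the set, 1 gene was higher and 1 lower at an unadjusted limma p under 0.05 (1.11% each, against 1.66% and 0.974% of all genes), and the median log2 difference of the 90 genes was 0.010, against 0.026 for all genes. Ndufs5, an accessory subunit of complex I, had 32, 31.8, 32.8 and 38.2 FPKM in HC mice and 25.8, 27.6, 25.8 and 27 in Ctrl mice. All Ctrl values lay under all HC values, at 78.7% of the HC mean (log2 difference -0.34 ± 0.12 SE, limma p = 0.0096, adjusted p = 1, exact permutation p = 0.0286). Ndufb3, an accessory subunit of the membrane arm of complex I, went the other way, with 6.14, 6.68, 5.9 and 6.5 FPKM in HC and 7.04, 8.18, 7.08 and 7.65 in Ctrl mice. Again the groups did not overlap (log2 difference 0.24 ± 0.10 SE, limma p = 0.0256, adjusted p = 1, exact permutation p = 0.0286). Ndufa13 came next by limma p, with 2.15 to 4.14 FPKM in HC and 3.57 to 4.39 in Ctrl mice, which overlapped (log2 difference 0.47 ± 0.25 SE, limma p = 0.0813, adjusted p = 1, exact permutation p = 0.114). The count of 2 genes became 12 with a fit to the 8 mice compared (9.65% of all genes) and 8 with the methods' test on FPKM (9.36%), and 4 without HC replicate 4 (2.56%). With the unnamed transcripts of their loci added, the log2 difference was -0.22 ± 0.13 SE for Ndufs5 (limma adjusted p = 1), which no longer reached an unadjusted limma p of 0.05, and 0.19 ± 0.22 SE for Ndufa13 (limma adjusted p = 1). With median-ratio size factors it was 0 higher and 2 lower (2.35% and 2.16% of all genes).

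NLH vs. Ctrl asked about inescapable shocks in mice that did not become helpless. Here 11 genes of the set (12.2%) were higher at an unadjusted limma p under 0.05, against 4.99% of all genes, and none was lower, against 0.967%. All 11 encode subunits: 4 belong to complex I (Ndufb3, Ndufs5, Ndufb10 and Ndufab1), 1 to complex III (Uqcrb), 2 to complex IV (Cox6b1 and Cox7a2) and 4 to complex V (Atp5e, Atp5j2, Atp5l and Atp5o). The difference was positive for 74 of the 90 genes (82.2%), against 63.3% of all genes, and its median was 0.13, against 0.068. The median was 0.20 in complex V, where 14 of 15 subunit genes were positive, 0.16 in complex I (31 of 36), 0.15 in complex III (7 of 8), 0.076 in complex IV (11 of 15) and -0.06 in complex II (2 of 4). With FPKM divided by median-ratio size factors, which sets the median of all genes to -0.0027, 9 genes were higher and 2 lower, and the median of the set was 0.048, while 4.00% of all genes were higher and 3.86% lower. The count of 11 became 17 with a fit to the 8 mice compared (16 higher and 1 lower, against 9.19% and 2.16% of all genes) and 7 without NLH replicate 3, all higher (3.28%). NLH replicates 2 and 3 lay above all Ctrl mice in 57 and 63 of the 90 genes (43.1% and 47.7% of all genes). Replicates 1 and 4 did so in 32 and 23 (27.4% and 20.8%). The set's summed FPKM lay within the Ctrl range (2221 to 2571) in replicates 1 and 4 and above it in replicates 2 and 3. As a share of all protein coding genes, the set took 2.38% to 2.57% in NLH mice, overlapping with Ctrl mice (2.36% to 2.49%).

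Ndufb3 had the smallest p of the set for NLH against Ctrl. Its 4 NLH mice had 9.71, 10.7, 11.4 and 9.74 FPKM, all above the Ctrl mice (7.04 to 8.18), at 139% of their mean (10.4 ± 0.808 against 7.49 ± 0.538, log2 difference 0.47 ± 0.10 SE, limma p = 0.000222, adjusted p = 0.252, exact permutation p = 0.0286). An exact p of 0.0286 is the smallest that the two-sided permutation test can give with 4 mice against 4. Ndufb3 is listed with a single transcript, so this value does not depend on how fragments were split between isoforms. Ndufs5 had 29.8, 42.2, 39.5 and 40.2 FPKM in NLH mice against 25.8 to 27.6 in Ctrl mice. The groups did not overlap (143% of the Ctrl mean, log2 difference 0.50 ± 0.12 SE, limma p = 0.000502, adjusted p = 0.309, exact permutation p = 0.0286). The HC mice, at 31.8 to 38.2 FPKM, lay within the range of the NLH mice, and it was the Ctrl mice that were low. Uqcrb, a complex III subunit next to the ubiquinone site, had 56.1, 52.7, 57.8 and 48.1 FPKM in NLH mice and 33, 50.6, 38.7 and 30.8 in Ctrl mice. Ctrl replicate 2 lay among the NLH mice, so the groups overlapped (log2 difference 0.51 ± 0.14 SE, limma p = 0.00194, adjusted p = 0.441, exact permutation p = 0.0571).

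Cox6b1, which faces the intermembrane space and joins complex IV dimers, had 62.9, 77.7, 77.1 and 66.2 FPKM in NLH mice, above 51.6, 61.3, 55.5 and 55.5 in Ctrl mice (log2 difference 0.34 ± 0.11 SE, limma p = 0.00822, adjusted p = 0.571, exact permutation p = 0.0286). Atp5o, the stalk protein that gives ATP synthase its oligomycin sensitivity, had 58.3 to 78.3 FPKM in NLH against 52.4 to 54.8 in Ctrl mice (log2 difference 0.34 ± 0.13 SE, limma p = 0.0176, adjusted p = 0.669, exact permutation p = 0.0286), although its locus shares assembled transcripts with the neighbouring gene Donson. Ndufab1, the mitochondrial acyl carrier protein, had 15.5 to 22.6 against 8.53 to 14.2 FPKM (log2 difference 0.67 ± 0.24 SE, limma p = 0.0139, adjusted p = 0.65, exact permutation p = 0.0286). Atp5j2, subunit f of the membrane part of ATP synthase, had 4.64 to 6.81 against 1.97 to 4 FPKM (log2 difference 1.02 ± 0.37 SE, limma p = 0.0137, adjusted p = 0.65, exact permutation p = 0.0286). Ndufb10 had 11.4 to 16.1 against 9.59 to 10.6 FPKM and Cox7a2 44.8 to 56.1 against 39.8 to 43, both without overlap. Atp5e (14.3 to 23.4 against 11.6 to 16) and Atp5l (61.6 to 106 against 54.3 to 70.1) overlapped. HC mice overlapped with NLH mice for Ndufb10 (10.2 to 12.8) and Cox7a2 (39.4 to 48.3). For Cox6b1, Atp5o, Ndufab1 and Atp5j2 all HC mice lay under all NLH mice. Among 9 other subunits, most of them catalytic or electron-carrying, Atp5b (0.10), Atp5a1 (0.12), Ndufs1 (0.18), Ndufv1 (0.09), Sdha (0.12), Sdhb (-0.14), Uqcrc1 (-0.07), Uqcrfs1 (0.17) and Cox5a (0.19) did not reach a limma p of 0.05, with log2 differences in parentheses. The NLH mice nevertheless lay above all Ctrl mice for Cox5a (33.6 to 38.4 against 29.4 to 33.3 FPKM) and for Sdha (40.3 to 46 against 38.4 to 40.3, where the nearest mice differ by less than the digits shown). For both genes HC mice overlapped with NLH mice (29.6 to 35.2 and 37 to 41.1 FPKM in HC).

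**Figure D2:**
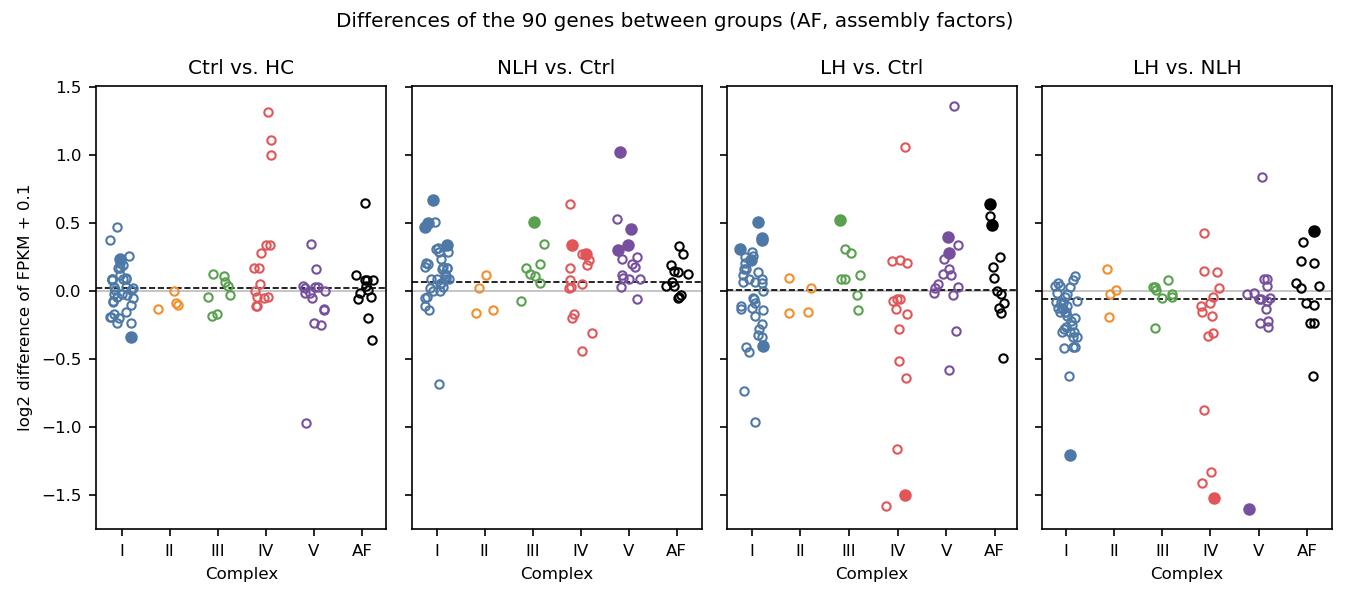
log2 difference of FPKM + 0.1 for each of the 90 genes in the 4 comparisons, by complex, with AF for assembly factors. Filled points have an unadjusted limma p under 0.05 and open points do not, and the dashed line is the median of all 14785 genes. In NLH vs. Ctrl the filled points, 11 in number, all lie above 0, and in LH vs. NLH 3 of 4 lie below 0.

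LH vs. Ctrl asked about inescapable shocks in mice that became helpless. At an unadjusted limma p under 0.05, 10 genes of the set were higher (11.1%, against 8.18% of all genes) and 2 lower (2.22%, against 3.58%), so the set was close to the background. The median difference was 0.025, against 0.0098 for all genes, and 48 of 90 genes were positive, against 51.5% of all genes. The higher genes were Ndufb3, Ndufb10, Ndufs1, Ndufs5 and Ndufab1 of complex I, Uqcrb of complex III, Atp5l and Atp5o of complex V and the assembly factors Ndufaf6 and Sdhaf3, and the lower ones were Ndufb7 and Cox7b2. Cox7b2 was listed at 0 in 3 of 4 LH mice and at 0.197 to 0.323 FPKM in Ctrl mice, a level too low to weigh. No complex IV gene was higher at this threshold, and 4 of its 15 genes had a positive difference. The summed FPKM of complex IV was 769 and 868 in LH replicates 1 and 2, above all Ctrl mice (620 to 717). It was 541 and 502 in LH replicates 3 and 4. With median-ratio size factors 13 genes were higher and 9 lower (8.12% and 8.75% of all genes), and the counts were 8 and 11 without LH replicate 1 (5.99% and 6.24%) and 9 and 9 without LH replicate 2 (6.91% and 9.54%), so the balance of directions moved with the scaling and with these mice, in the set and in all genes.

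Uqcrb had 56.2, 62, 45.6 and 53.4 FPKM in LH mice (log2 difference 0.52 ± 0.14 SE, limma p = 0.0016, adjusted p = 0.149, exact permutation p = 0.0571). Ctrl replicate 2, at 50.6, lay among them and the other 3 Ctrl mice below. Ndufb10, an accessory complex I subunit, had 13.9, 12.2, 13.7 and 13 FPKM in LH mice, all above 10.2, 10.6, 10.2 and 9.59 in Ctrl mice (log2 difference 0.38 ± 0.11 SE, limma p = 0.00395, adjusted p = 0.198, exact permutation p = 0.0286), but overlapping with the HC mice (10.2 to 12.8). Ndufs5 had 36.1, 40.1, 33.4 and 30 FPKM in LH mice, all above the Ctrl mice (log2 difference 0.39 ± 0.12 SE, limma p = 0.00415, adjusted p = 0.202, exact permutation p = 0.0286). With the unnamed transcript of its locus added, the difference was 0.25 ± 0.13 SE (limma adjusted p = 0.413), which no longer reached an unadjusted limma p of 0.05. Ndufb3 had 8.73, 9.3, 8.79 and 10.5 FPKM, again above all Ctrl mice (log2 difference 0.31 ± 0.10 SE, limma p = 0.0059, adjusted p = 0.219, exact permutation p = 0.0286). Atp5l, subunit g of ATP synthase, had 96, 90, 80 and 74 FPKM against 54.3 to 70.1 in Ctrl mice (log2 difference 0.40 ± 0.14 SE, limma p = 0.0119, adjusted p = 0.276, exact permutation p = 0.0286). For Ndufb10, Ndufs5, Ndufb3 and Atp5l all LH mice, replicates 3 and 4 included, lay above all Ctrl mice, and with Sdhaf3 this held for 5 of the 90 genes, beside 4.84% of all genes. HC mice overlapped with LH mice for Ndufb10, Ndufs5, Sdhaf3 and Atp5l (67.7 to 76.2 FPKM in HC). For Ndufb3 all HC mice lay under all LH mice.

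**Figure D3:**
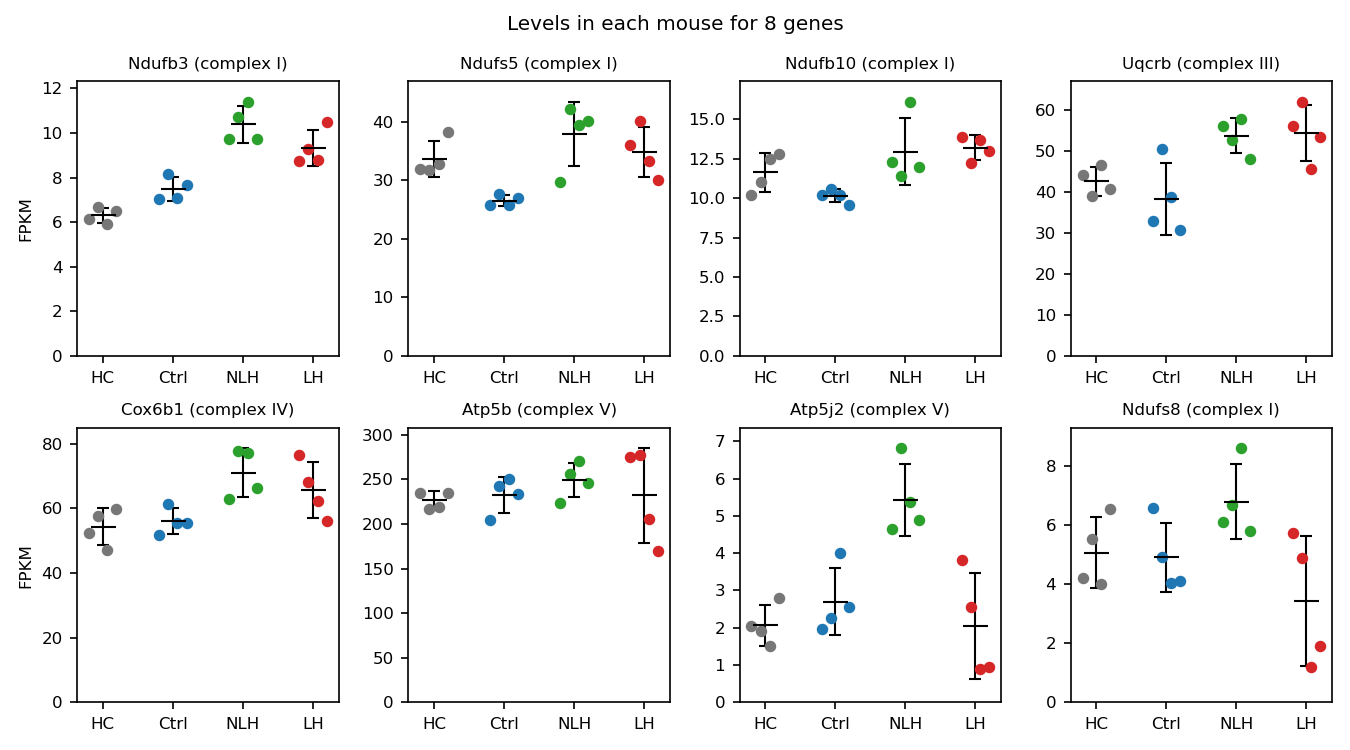
FPKM in each mouse for 8 genes, with the mean (bar) and SD (whiskers) of 4 mice per group and each axis starting at 0. For Ndufb3 the NLH mice (9.71 to 11.4) lie above the Ctrl mice (7.04 to 8.18), and for Atp5b the LH mice have 275, 277, 206 and 170.

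The LH mice differed widely from each other in this set. The summed FPKM of the 90 genes was 2959 and 3118 in LH replicates 1 and 2 and 2226 and 1906 in replicates 3 and 4, against 2221 to 2571 in Ctrl and 2391 to 2951 in NLH mice. Among the 84 genes above 0 in all mice, LH replicate 4 was the lowest of the 16 mice in 42 (50%, against 41.0% of the 12756 such genes) and LH replicate 2 the highest in 38 (45.2%, against 27.9%). LH replicate 1 lay above all Ctrl mice in 71 of 90 genes (78.9%, against 50.1% of all genes), and LH replicate 4 below all of them in 60 (66.7%, against 54.7%). As a share of the summed FPKM of all protein coding genes, the set took 2.51% and 2.52% in LH replicates 1 and 2 and 2.29% and 2.27% in replicates 3 and 4, beside 2.36% to 2.57% in the other 12 mice. The median SD of a gene within LH mice was 0.394 on the log2 scale, against 0.127 within Ctrl mice, and over all genes with a mean FPKM of at least 1 it was 0.358 against 0.138. The same 2 mice had the most transcripts listed at 0, and the part of this in the levels was not tested.

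**Figure D4:**
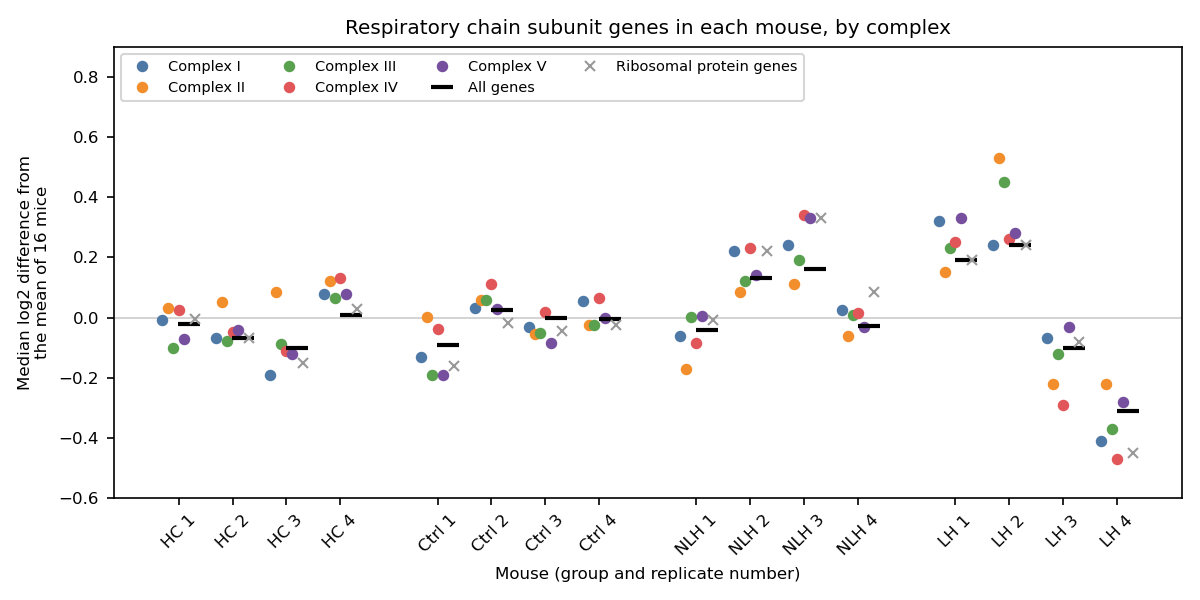
Median log2 difference from the mean of 16 mice for the subunit genes of each complex, for all 14785 genes (black bars) and for 77 ribosomal protein genes (crosses), in each mouse. The medians of complexes I to V lie between 0.15 and 0.53 in LH replicates 1 and 2 and between -0.47 and -0.22 in LH replicate 4.

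Without LH replicates 3 and 4, LH vs. Ctrl held 46 genes higher and 1 lower at an unadjusted limma p under 0.05, where 26.9% of all genes were higher and 1.22% lower, and 13 genes of the set passed an adjusted p of 0.05, where 1197 of all 14785 genes did. The median difference of the set became 0.33, against 0.23 for all genes. The 13 genes, all higher in LH, were Ndufs5, Ndufb6, Ndufa4 and Ndufs1, which are named for complex I, Uqcrh and Uqcrb of complex III, Cox5a and Cox7a2 of complex IV, and Atp5o, Atp5d and Atp5h of complex V, with Atp5s and Atp5sl, which are counted with the assembly factors. Atp5o had the smallest p (76.9 and 78.4 FPKM in LH replicates 1 and 2 against at most 54.8 in Ctrl mice, log2 difference 0.54 ± 0.09 SE, adjusted p = 0.0163 by limma). This setting was chosen after the values had been seen and leaves 2 LH mice, and leaving out only LH replicate 4 gave 29 higher and 1 lower (16.7% and 2.20% of all genes), with 0 past the adjusted threshold.

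LH vs. NLH compared helpless with non-helpless mice after the same inescapable shocks. The set had 1 gene higher and 3 lower at an unadjusted limma p under 0.05 (1.11% and 3.33%, against 2.98% and 4.05% of all genes), and its median difference was -0.087, against -0.054. In complex I, 6 of 36 subunit genes had a positive difference, against 39.9% of all genes, with a median of -0.15. The summed FPKM of these 36 genes was 757 and 749 in LH replicates 1 and 2, above all NLH mice (600 to 739). It was 573 and 454 in LH replicates 3 and 4. With median-ratio size factors 0 genes of the set were higher and 5 lower (4.87% and 5.86% of all genes). The counts moved with single mice: 1 gene was higher and 15 lower without LH replicate 1 (2.70% and 8.06% of all genes), 2 and 9 without LH replicate 2 (2.89% and 10.6%), 4 and 4 without LH replicate 4 (6.96% and 2.62%), 2 and 7 without NLH replicate 1 (3.17% and 4.96%), and 16 and 2 without LH replicates 3 and 4 (15.9% and 1.43% of all genes), where the median of the set was 0.19 and that of all genes 0.16. Atp5j2 had 3.83, 2.55, 0.888 and 0.941 FPKM in LH mice, all under 4.64, 6.81, 5.38 and 4.88 in NLH mice, at 37.8% of their mean (log2 difference -1.60 ± 0.37 SE, limma p = 0.000492, adjusted p = 0.303, exact permutation p = 0.0286). HC mice (1.5 to 2.81) and Ctrl mice (1.97 to 4) were also under all NLH mice. Without LH replicates 3 and 4 the log2 difference was -0.76. A coding transcript of 540 bases, holding 38.3% of the FPKM of Atp5j2, had 0.324 FPKM in LH and 2.73 in NLH mice, and the fragments of the gene are divided between 4 transcripts. Sdhaf3, an assembly factor that protects the iron-sulfur subunit of complex II, was the gene that was higher, with 1.53, 1.71, 1.71 and 2.37 FPKM in LH and 1.12 to 1.63 in NLH mice, which overlapped (log2 difference 0.44 ± 0.19 SE, limma p = 0.0348, adjusted p = 0.678, exact permutation p = 0.0571). Without LH replicates 3 and 4 its log2 difference was 0.29 ± 0.21 SE (limma adjusted p = 0.475).

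Ndufs8, a core subunit of complex I with iron-sulfur clusters, gave different values by which rows were counted. By the rows that carry its name it had 5.72, 4.89, 1.21 and 1.9 FPKM in LH and 6.09, 6.69, 8.59 and 5.78 in NLH mice, with no overlap (log2 difference -1.20 ± 0.36 SE, limma p = 0.00441, adjusted p = 0.472, exact permutation p = 0.0286). LH replicates 3 and 4 were the low ones, and without them the log2 difference was -0.34 ± 0.22 SE (limma adjusted p = 0.444). With the 2 unnamed transcripts assembled at its locus added, it had 10.3, 10.5, 9.02 and 8.34 in LH and 7.64, 10.3, 11.8 and 8.72 in NLH mice, and the log2 difference was 0.00 ± 0.14 SE, limma adjusted p = 1. Sdhd, the small membrane anchor of complex II, was listed at 1.4 FPKM in LH replicate 4 and at 5.02 to 14.6 in the other mice, but with its unnamed transcript added it had 14.4 in that mouse and 14.4 to 18.7 in the others, and its SD within groups went from 0.87 to 0.126 on the log2 scale. Atp5j, coupling factor F6 in the stalk of ATP synthase, showed the opposite. With 5 unnamed transcripts added, NLH mice had 42.5, 42.2, 39.5 and 40.5 FPKM and Ctrl mice 30.5, 28.5, 31.4 and 31.6 (log2 difference 0.43 ± 0.13 SE, limma adjusted p = 0.504), while the named rows gave 11 to 15.6 and 8.07 to 14.8 FPKM, which overlapped (log2 difference 0.25 ± 0.18 SE, limma p = 0.197, adjusted p = 0.968, exact permutation p = 0.286). These sums were chosen with the values already seen. Named and unnamed transcripts of a locus share fragments, so the values of single transcripts of these genes depend on how the fragments were divided.

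The 3 genes with the largest spread among those with a mean of at least 1 were Cox7a1, Atp5k and Sdhd. Cox7a1 was listed at 0 in HC replicate 2 and in LH replicates 2 and 4 and at 3.81 FPKM in LH replicate 3. Atp5k, subunit e of ATP synthase, was at 10.5 FPKM in LH replicate 4 and at 0.267 to 3.59 in the other mice. Yet LH replicate 4 was the lowest mouse in 50% of the set's genes above 0 in all mice (41.0% of all such genes).

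At the level of transcripts, the methods' t-test on FPKM was applied to the rows of the 90 genes, of which 313 are listed. An unadjusted p under 0.05 was found for 16 in Ctrl vs. HC (5.14%, against 6.68% of all transcripts tested), 23 in NLH vs. Ctrl (7.40%, against 7.20%), 17 for LH against Ctrl (5.48%, against 7.69%) and 14 for LH against NLH (4.53%, against 4.47%), so the set was near the background in all 4 comparisons. None passed an adjusted p of 0.05 by limma over all transcripts, while 9, 19, 31 and 30 had an unadjusted limma p under 0.05 (2.88%, 6.07%, 9.90% and 9.58%, against 3.45%, 5.12%, 10.7% and 8.72% of all transcripts). After transcripts called in Ctrl vs. HC or NLH vs. Ctrl were left out, as in the methods, 11 (against a background of 6.15%) and 13 (3.95%) remained in the LH comparisons. By direction, 6 were higher and 10 lower in Ctrl vs. HC (3.85% and 2.83% of all transcripts), 17 and 6 in NLH vs. Ctrl (4.10% and 3.10%), 8 and 9 for LH against Ctrl (2.89% and 4.81%) and 4 and 10 for LH against NLH (1.27% and 3.20%). Of the 23 in NLH vs. Ctrl, 17 were of coding class in GENCODE. They included the single transcripts of Ndufb3, Cox7a2 and Cox5a and the main ones of Ndufs5, Uqcrb, Cox6b1 and Atp5o. Among the 10 lower in LH vs. NLH was a retained intron form of Ndufa7 (0.213 against 1.23 FPKM) that made up 2.90% of its gene's FPKM. Transcripts of coding class made up 88.3% to 91.1% of the FPKM of the set in NLH and LH mice and 88.5% to 89.7% in HC and Ctrl mice, and retained intron forms 2.38% to 3.63% and 3.27% to 3.97%. Over all protein coding genes, retained intron forms made up 6.74% to 9.69% in NLH and LH mice and 8.34% to 8.90% in HC and Ctrl mice.

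Genes around the respiratory chain were set beside it, at the same unadjusted limma p, which 4.99% of all genes reached upward and 0.967% downward in NLH vs. Ctrl, 8.18% and 3.58% for LH against Ctrl, 2.98% and 4.05% for LH against NLH, and 1.66% and 0.974% for Ctrl against HC. None of these lists held a gene past an adjusted p of 0.05. In NLH vs. Ctrl, 2 of 18 genes for electron and ATP carriers were higher, 1 of 16 for the citric acid cycle, 3 of 20 for mitochondrial import and outer membrane, 1 of 37 for other assembly factors, 2 of 15 for regulators of mitochondrial biogenesis and 0 of 15 for glycolysis, and none was lower. The median differences were 0.17, 0.084, 0.079, 0.14, 0.058 and 0.0031. In LH vs. Ctrl, 5, 2, 3, 5, 1 and 0 of these were higher, and 1 regulator was lower. For LH against NLH, 1, 1, 0, 1, 0 and 0 were higher and 0, 0, 1, 2, 1 and 0 lower. In Ctrl vs. HC, 1 assembly factor and 1 regulator were higher and 1 import gene was lower. The 77 cytosolic ribosomal protein genes, which also give short and abundant transcripts, had a larger share at this p in NLH vs. Ctrl: 20 were higher and 0 lower in NLH vs. Ctrl (26%, median 0.21), 9 higher and 4 lower in LH vs. Ctrl (median 0.046), 0 higher and 10 lower in LH vs. NLH (median -0.19) and 1 in each direction in Ctrl vs. HC (median -0.0058). The difference between both groups of genes was not tested.

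Cell type markers were read in the same way. In NLH vs. Ctrl, 1 of 6 parvalbumin interneuron genes was lower, and none of 7 neuron, 6 principal cell, 6 astrocyte, 5 oligodendrocyte, 6 microglia, 5 vessel, 6 choroid plexus, 4 red blood cell and 6 striatum genes had an unadjusted limma p under 0.05. The vessel markers had a positive difference in all 5 genes (median 0.36), as did the oligodendrocyte markers in all 5 (median 0.052), and the choroid plexus markers had a negative one in all 6 (median -0.58). The neuron markers had a positive difference in 3 of 7 genes (median -0.14). They took 0.809% to 0.865% of the summed FPKM of all genes in NLH mice against 0.899% to 0.944% in Ctrl mice, without overlap. In LH mice their share was 0.844% to 0.890%, also under all Ctrl mice. HC mice had 0.875% to 0.904%, which overlapped with both Ctrl and LH mice. In LH vs. Ctrl, 1 principal cell, 2 interneuron, 1 vessel and 2 striatum genes were higher and 1 neuron and 1 microglia gene lower. Between LH and NLH mice, 1 interneuron and 1 striatum gene were higher and 1 principal cell and 1 vessel gene lower. No marker reached this p in Ctrl vs. HC, where 0 of 5 oligodendrocyte markers (median -0.24) and 6 of 6 choroid plexus markers (median 0.55) had a positive difference. Between LH and NLH mice these were 0 of 5 (median -0.10) and 6 of 6 (median 0.31), so both lists went the other way than in NLH vs. Ctrl. The summed FPKM of choroid plexus markers ranged from 3.20 to 40.2 in HC, 17.9 to 53.3 in Ctrl, 4.23 to 66.0 in NLH and 2.57 to 94.6 in LH mice, and that of oligodendrocyte markers from 265 to 515 in LH mice against 328 to 434 in Ctrl mice. Their part in the levels of the respiratory chain genes was not tested.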

How the data were processed

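Hippocampal RNA of 16 mice was measured, 4 in each of 4 groups taken from the labels. The authors deposited FPKM values per transcript and mouse, not on a log scale and, beyond the library size that FPKM holds, with no further scaling between mice. Per the paper's methods, reads were aligned with HISAT2, assembled with String Tie and quantified with Cufflinks on mm10, while the submitters' processing notes list STAR 2.42a, StringTie 1.2.3 and Cufflinks, so the aligner is not settled. Whether strand was kept is not given in the sources used here. These values are not read counts. An estimate of depth came from the steps between low FPKM values at 1962 loci, assuming fragments of 200 bases. In each mouse 69.4% to 78.2% of these values came to whole fragments within 0.1 (20% by chance). Precision is limited by the 4 mice per group, and the labels give no batch.

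FPKM was summed over the rows of type protein_coding for each gene name. This type belongs to the gene: of the 313 rows of the set, 173 are coding transcripts in GENCODE vM21 (same build), 79 retained introns, 47 processed transcripts and 14 targets of nonsense-mediated decay. Limma 3.58.1 (R 4.3.3, trend and robust) took log2(FPKM + 0.1) of 14785 genes in the 16 mice. Fold changes on this scale understate changes of low genes. The 4 groups shared 1 estimate of the spread per gene, so each limma p also rests on mice outside the comparison. For the 85 genes of the set averaging 1 FPKM or more, the median pooled SD was 0.264 (log2). It lay above the median SD of Ctrl (0.127), HC (0.142) and NLH mice (0.197) and under that of LH mice (0.394). The limma p can therefore be too large where no LH mice are compared and too small where they are. Exact permutation tests were two-sided, and 4 mice against 4 cannot give a p under 0.0286. Transcripts were tested by the methods' test on FPKM. The fit was tested on simulated data with equal spread in all groups and genes that varied independently. That simulation therefore does not cover the unequal spread of these groups. Python 3.11.15, pandas 2.3.3, numpy 2.4.6, data.table (1.17.8) and matplotlib 3.10.9 were also used. Reads of subunit genes can also map to their processed pseudogenes, and 6 loci (those of Atp5o, Cox8a, Ndufb2, Ndufb8, Ndufb9 and Ndufv2) share assembled transcripts with another named gene, so these levels are uncertain.

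The genes of the set and all lists were chosen with earlier results of these data known. Genes named are the 2 highest subunits of each complex, per comparison the 3 of smallest limma p among genes averaging 1 FPKM or more, 10 core subunits, the tissue isoforms and the 3 with the largest spread within groups. Further genes past the unadjusted threshold, and genes with unnamed transcripts at their locus, are named after their values were seen. Alternatives were another added constant (0.01 or 1), a filter on genes averaging under 1 FPKM, median-ratio size factors, the methods' test on FPKM, all rows of a gene name, no transcripts of 300 bases or fewer, only the mice compared, the mouse number as a block and each mouse left out. Only coding transcripts, unnamed transcripts of the locus and the fit without LH replicates 3 and 4 were chosen after seeing the data. Mice with the same number in different groups mostly did not deviate together (median r -0.029 over 24 pairs and 10108 genes), so numbers were not taken to pair mice. The 3 pairs over 0.1 were those among the mice numbered 2 of Ctrl, NLH and LH (0.144, 0.133 and 0.109).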

Additional observations from a re-analysis of the deposited data

Results flagged for a closer look

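Single mice far from the other 3 of their group were looked for in 156 groups of 4 mice, over 39 named genes, and 7 were found, where chance gives about 1 in 20 groups. Cox6a1 had 15.4 FPKM in NLH replicate 1, against 27.8 to 29.6 in the other NLH mice. Ndufs5 had 38.2 FPKM in HC replicate 4, against 31.8 to 32.8 in the other HC mice. Ndufa13 had 4.39 FPKM in Ctrl replicate 4 (others 3.57 to 3.68), and Sdha had 38.4 FPKM in Ctrl replicate 1 (others 40.1 to 40.3). The other 3 concern genes near the lower limit of the data: Cox6b2 had 0.175 FPKM in HC replicate 3 (others 0.794 to 0.912), Cox8b had 2.76 in LH replicate 2 (others 0 to 0.44), and Cox7b2 had 0.138 in LH replicate 1, with the other LH mice listed at 0.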

How the results depend on the processing

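Of 240 alternatives to the counts and medians of the set, 217 kept their direction and their side of the threshold or lay within 1.5 times the count. In Ctrl vs. HC the 2 genes with an unadjusted limma p under 0.05 (2.64% of all genes) became 8 with the methods' test on FPKM (9.36%), 12 with only the 8 mice compared (9.65%), 1 with unnamed transcripts of the locus (2.60%), and 2 to 4 with 1 mouse left out (1.88% to 2.56%). In NLH vs. Ctrl the 11 genes (5.96%) became 17 with only the 8 mice compared (11.4%) and 7 to 13 with 1 mouse left out (4.02% to 7.99%). In LH vs. Ctrl the 12 genes (11.8%) became 22 with median-ratio size factors (16.9%), 8 to 30 with 1 mouse left out (8.70% to 18.9%) and 47 without LH replicates 3 and 4 (28.1%), where 13 passed the adjusted threshold and the median was 0.33. In LH vs. NLH the 4 genes (7.03%) became 3 to 16 with 1 mouse left out (5.21% to 13.4%) and 18 without LH replicates 3 and 4 (17.3%), with a median of 0.19. With 1 mouse left out, the median of the set ran from -0.021 to 0.052, 0.077 to 0.18, -0.037 to 0.20 and -0.17 to 0.057 in Ctrl vs. HC, NLH vs. Ctrl, LH vs. Ctrl and LH vs. NLH. Transcripts past the methods' test numbered 16, 23, 17 and 14 in these comparisons and 0 in each with adjusted limma p (9, 19, 31 and 30 at an unadjusted limma p under 0.05, beside 3.45%, 5.12%, 10.7% and 8.72% of all transcripts), and 11 of the 17 remained after the exclusion. The causes were not tested. Mice with the same number in different groups mostly did not deviate together. With this number as a block the fit gave 3, 12, 12 and 4 genes (2.50%, 5.90%, 11.3% and 6.70% of all genes), with medians of 0.010, 0.13, 0.025 and -0.087 and 0 past the adjusted threshold. For single named genes, 61 of 3022 alternatives moved the log2 difference by at least the SD within groups and 197 changed its sign. Low genes are measured poorly: Cox8b was listed at 0 in 7 mice, Cox7b2 in 6 and Cox4i2 in 3, and the part of depth in this was not tested.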
